A study of Mus musculus with 6 samples.

Results

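The insulin-like growth factor (IGF) binding proteins are a family of secreted proteins, and 6 of their genes, Igfbp2, Igfbp3, Igfbp4, Igfbp5, Igfbp6 and Igfbp7, were followed in mouse lung adenocarcinoma cells in which p53 expression was restored. They were picked out by gene symbol, and every probe set that the platform annotation gives to one of these symbols alone was used. A probe set is a group of short oligonucleotides that reads 1 transcript target. This gave 14 probe sets for the 6 genes, of 22626 probe sets and 12393 named genes on the array. The cell lines KPR4, KPR5 and KPR8 came from adenocarcinomas of C57/B6-129SvJae mice, and each was measured on 1 array after 24 h with 250 nM 4-OH tamoxifen (4-OHT), which in these cells restores p53, and on 1 array with the ethanol vehicle. The 3 arrays of each treatment are therefore 1 per line, and both groups consist of the same 3 lines. The alleles of the lines, the origin of each line as a clone or a pool, and the age of the donor mice are not given in the sources used here. No line without restorable p53 was analysed here, so effects of the drug itself and of p53 cannot be told apart.

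IGF-binding proteins bind IGF1 and IGF2 outside the cell, lengthen their life in the circulation, and control how much reaches the IGF1 receptor. They are freed of their ligand by proteases that cut them, such as pappalysin, and several also bind matrix or cell surfaces. In human cells IGFBP3 is a known transcriptional target of p53, and IGFBP7 has been linked to senescence, the arrest state that p53 can impose.

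All levels below are log2 expression per probe set, as deposited, where a difference of 1 means a 2-fold level. Differences are 4-OHT minus vehicle. The 27 control probe sets for Bacillus subtilis transcripts read 1.13 to 2.84 and give the level of background. A probe set was tested if 3 or more arrays reached log2 4, which 13169 did, and with the drug 8.01% of them were higher and 7.81% lower (limma with a term for line, Benjamini-Hochberg adjusted p with a threshold of 0.05). Cdkn1a, the p21 cell cycle inhibitor gene and a p53 target, rose in every line, with gains of 5.62 (KPR4), 3.50 (KPR5) and 4.78 (KPR8). Each of the 6 epithelial marker genes was tested, and their probe sets read 4.13 to 13.50, whereas the 6 lung epithelial markers, Nkx2-1 and the surfactant genes among them, did not exceed 3.13 on any array. Of the epithelial genes 1 was called higher and 0 lower with the drug, against 9.48% higher and 8.03% lower among all genes by their brightest probe set. The one called was the claudin gene Cldn4 (0.89 ± 0.19 SE, higher in 3 of 3 lines, adjusted p = 0.00570). Epcam was lower in each line and just missed the threshold (-0.37 ± 0.12, adjusted p = 0.0540). Cdh1 was higher in each line and just missed it too (0.30 ± 0.10, adjusted p = 0.0536). The lines carried epithelial transcripts while the defining lung markers were near background. Of 8 fibroblast markers 3 were tested, and 0 of them changed; the summed linear signal of the list was 184 to 389 with the drug and 204 to 347 with vehicle. The 6 endothelial markers did not exceed 4.01. Of 7 leukocyte markers 3 were tested and 1, Cd68, was called higher (1.02 ± 0.14 SE, adjusted p = 0.000427). Cd68 read 4.825 (KPR4), 4.746 (KPR5) and 4.322 (KPR8) with the drug, against 3.661, 3.759 and 3.415 with vehicle. It reached log2 4 only with the drug, so the group where it was higher admitted it to the test. In the fit without a filter its adjusted p was 0.000705. Ptprc, the defining leukocyte gene, read 1.62 to 2.05. The summed signal of the leukocyte list was 157 to 671 with the drug and 148 to 573 with vehicle. In such bulk RNA a change in the number of cells of a type and a change in RNA per cell cannot be told apart.

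Across the family the changes with the drug were small and uneven. Igfbp3 rose in the mean over the lines, most of it from KPR4. Igfbp4 rose on 2 of its 6 probe sets and did not pass on the other 4. Igfbp7 and Igfbp5 did not pass on any of theirs, and Igfbp2 and Igfbp6 were at background. In all, 12 probe sets of 4 genes were tested, and 3 were higher and 0 lower, or 25% of those tested against 8.01% higher among all probe sets. That share rests on 2 genes, since probe sets of 1 gene share their transcripts. At an unadjusted p under 0.05 limma gave 4 higher and 2 lower, with both lower ones of Igfbp4. The groups overlapped on each of the 12, whereas all arrays of a treatment stood to 1 side of the others on 15.0% of all probe sets tested. The 3 lines moved the same way on 6 of the 12, which is close to the 50.2% among all probe sets. The median change of the 12 was 0.09, against -0.03 for all probe sets tested. The 3 called rises lay between 0.42 and 0.50.

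The 250 bases before the transcription start are printed for the 3 genes that were well above background, since they are the ones whose levels the results turn on. The sequences are from RefSeq on GRCm38.p6, 5′ to 3′ on the strand of the gene, with a TATA-type motif (TATAAA or TATATA) in capitals where a script found one. Igfbp3 lies on the minus strand at chr11:7213924-7214173, Igfbp4 on the plus strand at chr11:99040994-99041243 and Igfbp7 on the minus strand at chr5:77408046-77408295.
Igfbp3: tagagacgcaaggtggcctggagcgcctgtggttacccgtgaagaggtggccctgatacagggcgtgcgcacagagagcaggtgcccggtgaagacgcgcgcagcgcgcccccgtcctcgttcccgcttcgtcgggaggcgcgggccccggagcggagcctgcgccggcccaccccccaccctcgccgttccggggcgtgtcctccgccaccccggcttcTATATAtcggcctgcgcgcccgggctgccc
Igfbp4: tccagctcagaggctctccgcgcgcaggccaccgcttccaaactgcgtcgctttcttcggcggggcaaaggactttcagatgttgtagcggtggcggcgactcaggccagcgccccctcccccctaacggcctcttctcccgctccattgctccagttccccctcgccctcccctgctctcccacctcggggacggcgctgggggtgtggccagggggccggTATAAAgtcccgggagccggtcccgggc
Igfbp7: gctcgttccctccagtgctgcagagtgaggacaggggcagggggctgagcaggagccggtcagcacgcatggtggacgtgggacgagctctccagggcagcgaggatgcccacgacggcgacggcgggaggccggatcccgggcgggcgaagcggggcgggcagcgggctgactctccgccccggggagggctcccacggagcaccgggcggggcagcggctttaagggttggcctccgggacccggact

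The 3 stretches are rich in G and C, at 73.2% for Igfbp3, 69.2% for Igfbp4 and 74.0% for Igfbp7. The Igfbp3 stretch holds 1 TATATA, which begins 30 bases before the start, and the Igfbp4 stretch 1 TATAAA, which begins 28 bases before it. Neither motif is in the Igfbp7 stretch. With both strands counted, it holds 4 matches to GGGCGG, the GC box, not all of them on the printed strand. The Igfbp3 and Igfbp4 stretches hold 0. Counting both strands, TATATA occurs in 5.25% of 32851 RefSeq stretches of the same length, TATAAA in 12.4% and GGGCGG in 32.7%. The p53 decamer, the repeated unit of the p53 response element, has a match in 7.13% of them and in 0 of these 3. These are letter matches in a short window and were not measured for binding.

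Igfbp3 encodes the main carrier of IGFs in serum and has 1 probe set, 1423062_at. It read 11.11 in KPR4, 11.15 in KPR5 and 11.98 in KPR8 with the drug, against 10.03, 10.85 and 11.86 with vehicle. Each line was higher with the drug, yet the groups overlap, because KPR8 with vehicle stood above KPR4 and KPR5 with the drug. The difference was 1.08 in KPR4, 0.30 in KPR5 and 0.12 in KPR8, so the line with the lowest vehicle level showed the largest difference and the line with the highest the smallest. The means were 11.41 ± 0.49 with the drug and 10.91 ± 0.91 with vehicle (SD, n = 3 lines each), and the vehicle levels were thus spread more widely. The change was 0.50 ± 0.15 (SE), or 1.42-fold, with a 95% interval of 0.17 to 0.83 (limma, adjusted p = 0.0428). Of 1055 called rises on the array, 904 were larger. The call does not hold without KPR4, where the change was 0.21 (adjusted p = 0.461), and it also ends without the line term (adjusted p = 0.796), without a filter (adjusted p = 0.0761), without a variance trend (adjusted p = 0.111) and in a fit of probe sets averaged by gene (adjusted p = 0.0699). Over the 12 alternatives the adjusted p ran from 0.00446 to 0.796 and 7 of them kept the call.

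**Figure D1:**
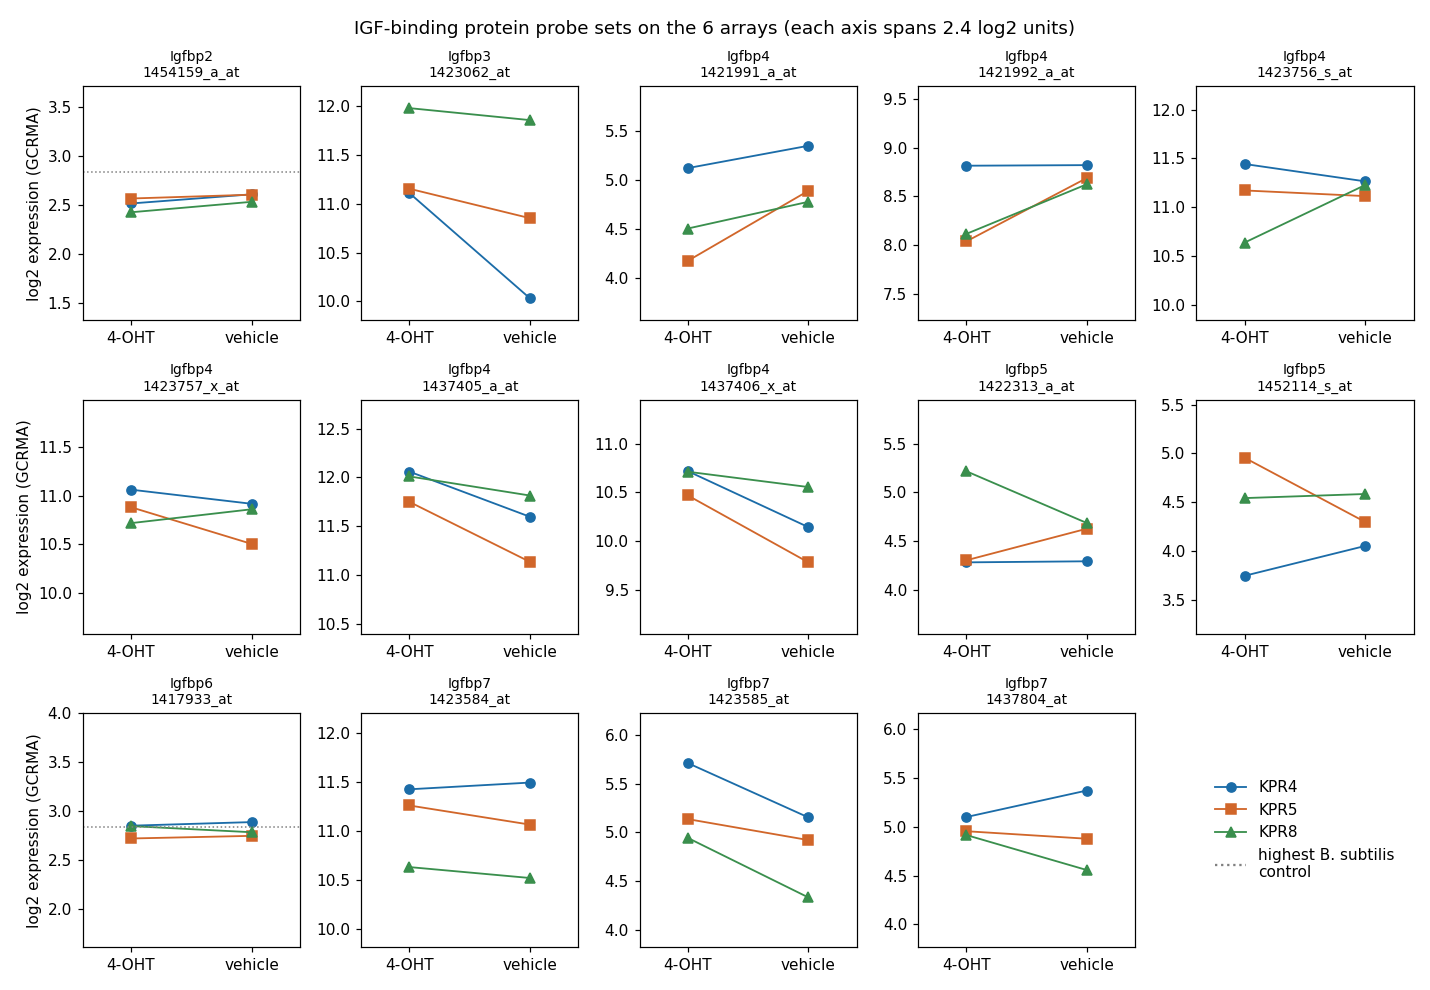
Log2 expression (vertical axis, GCRMA values) of the 14 probe sets with 4-OHT and with vehicle, 1 point per array and 1 colour and symbol per line, with a line joining the arrays of 1 cell line. Igfbp3 climbs with the drug mostly in KPR4 (11.11 against 10.03). The 2 Igfbp4 probe sets 1437405_a_at and 1437406_x_at are higher with the drug in each line. The sets 1421991_a_at and 1421992_a_at are lower, though 1421992_a_at hardly differs in KPR4. Igfbp2 lies below the highest control, 2.84 (dotted), and Igfbp6 to either side of it.

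Igfbp4 encodes a binding protein that mainly inhibits IGF action until pappalysin cuts it. Its 6 probe sets, designed in pairs on 3 sequences, gave different answers. The pair 1437405_a_at and 1437406_x_at rose, and the pair 1423756_s_at and 1423757_x_at did not pass, with changes to either side of 0. The pair 1421991_a_at and 1421992_a_at was lower with the drug without passing, though 1421992_a_at hardly differed in KPR4 (-0.005). In the platform's naming, the ending a marks probe sets whose probes match several transcripts of 1 gene, whereas s and x mark sets with probes that also match transcripts of other genes, so the s and x sets are less certain as readings of Igfbp4.

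The brightest Igfbp4 probe set, 1437405_a_at, read 12.06 in KPR4, 11.75 in KPR5 and 12.01 in KPR8 after 4-OHT, against 11.60, 11.13 and 11.81 with vehicle. Each line was higher with the drug, KPR5 the most, though KPR8 with vehicle overlapped KPR5 with the drug. Its change was 0.42 ± 0.11 (SE), or 1.34-fold (95% interval 0.20 to 0.65, adjusted p = 0.0154). Its partner 1437406_x_at read 10.72 (KPR4), 10.47 (KPR5) and 10.71 (KPR8) with the drug, against 10.14, 9.78 and 10.55 with vehicle. It followed the same pattern, with a Pearson's r of 0.984 between both over the 6 arrays, a description in which the shared arrays count. Its change was 0.47 ± 0.13, or 1.39-fold (95% interval 0.19 to 0.75, adjusted p = 0.0258). For 1437405_a_at the call ends without KPR4 (0.41, adjusted p = 0.0975) or without KPR5 (0.33, adjusted p = 0.0863), and its adjusted p lay between 0.00803 and 0.936 over 12 alternatives. For 1437406_x_at it ends in both cases too (0.42 with adjusted p = 0.167, and 0.37 with adjusted p = 0.118), with 0.0114 to 0.588 as the range over 10 alternatives. Without the line term (adjusted p = 0.580 and 0.588) or the variance trend (adjusted p = 0.0835 and 0.0708) neither set passed.

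The probe set 1421992_a_at lay to the other side: it read 8.81 in KPR4, 8.04 in KPR5 and 8.11 in KPR8 with the drug, against 8.82, 8.69 and 8.62 with vehicle. KPR5 and KPR8 were lower with the drug and KPR4 hardly differed. The change was -0.39 ± 0.16 (95% interval -0.74 to -0.04, unadjusted p = 0.0319, adjusted p = 0.121). The dim partner 1421991_a_at read 5.12 (KPR4), 4.17 (KPR5) and 4.50 (KPR8) with the drug, against 5.35, 4.89 and 4.78 with vehicle, a change of -0.41 ± 0.16 (adjusted p = 0.107). Neither passed the threshold, although both intervals lie below 0. The third pair, 1423756_s_at and 1423757_x_at, had differences of -0.12 ± 0.14 (adjusted p = 0.610) and 0.13 ± 0.12 (adjusted p = 0.528), with 95% intervals of -0.42 to 0.18 and -0.14 to 0.39. In KPR8 alone 1423756_s_at was 10.64 with the drug and 11.23 with vehicle, a difference of -0.59 that stands apart from 0.18 in KPR4 and 0.06 in KPR5.

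The gap between the pair that rose and the pair that was lower was measured within each line, a comparison chosen after the values were seen. The mean change of 1437405_a_at and 1437406_x_at exceeded that of 1421991_a_at and 1421992_a_at by 0.64 (KPR4), 1.33 (KPR5) and 0.57 (KPR8), or 0.85 ± 0.42 (SD, n = 3 lines). As 1 pair was higher and the other lower with the drug in each line, the gap had to have the same direction in 3 of 3 lines. An exact 2-sided sign-flip permutation test gave p = 0.25, the smallest that 3 lines allow. That outcome was fixed by the choice of pairs, so the test decides nothing here. The mean over all probe sets of the gene differed by 0.02 (adjusted p = 0.936), so the call for Igfbp4 depends on which probe set stands for it. Where on the transcript each set lies was not analysed here. RNA integrity and amplification can be followed by the excess of 3′ over 5′ signal of long control transcripts. For Gapdh this excess differed with the drug by 0.24 (KPR4), 0.29 (KPR5) and -0.40 (KPR8), and for Actb by 0.16 (KPR4), 0.39 (KPR5) and -0.07 (KPR8). In KPR8 the excess was lower with the drug for both controls, and in KPR4 and KPR5 it was higher. The part of RNA quality in the gap was not tested.

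**Figure D2:**
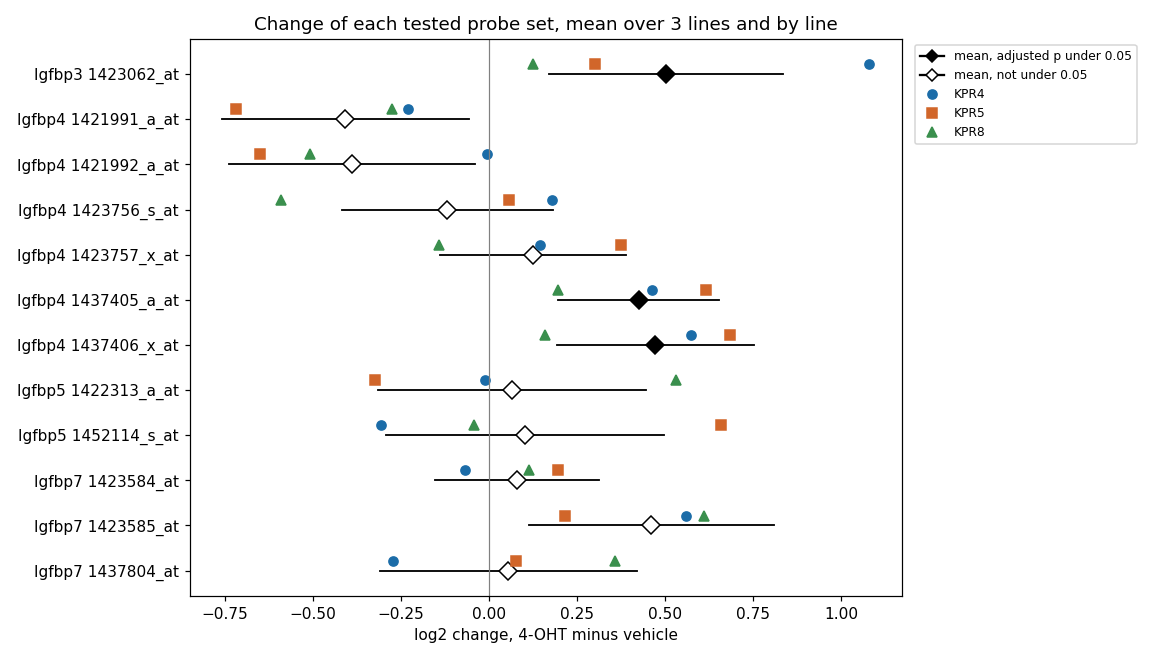
Log2 change, 4-OHT minus vehicle (horizontal axis), of the 12 tested probe sets. Diamonds are means over the 3 lines with 95% intervals from limma, filled where the adjusted p is under 0.05, and coloured symbols are the single lines. The 6 Igfbp4 sets run from -0.41 to 0.47, and the Igfbp3 mean of 0.50 lies between KPR4 at 1.08 and KPR8 at 0.12.

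Igfbp7 encodes a secreted protein of the family with low affinity for IGFs. Its brightest probe set, 1423584_at, read 11.43 in KPR4, 11.26 in KPR5 and 10.63 in KPR8 with the drug, against 11.50, 11.06 and 10.52 with vehicle. KPR8 was lowest under both treatments, and KPR4 minus KPR5 was 0.17 with the drug and 0.43 with vehicle. The change was 0.08 ± 0.11 (SE; 95% interval -0.15 to 0.31, adjusted p = 0.664). A dim probe set, 1423585_at, read 5.71 (KPR4), 5.14 (KPR5) and 4.94 (KPR8) with the drug, against 5.15, 4.92 and 4.33 with vehicle. It was higher with the drug in each line, by 0.46 ± 0.16, but did not pass (adjusted p = 0.0697). Without KPR5 it did pass (0.58, adjusted p = 0.0491), and the 10 alternatives gave adjusted p-values of 0.0491 to 0.691. The other dim set, 1437804_at, differed by 0.06 ± 0.17 (adjusted p = 0.863).

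Igfbp5, whose product binds matrix and is cut by several proteases, was dim on both probe sets. On 1422313_a_at it read 4.28 in KPR4, 4.31 in KPR5 and 5.22 in KPR8 with the drug, against 4.30, 4.63 and 4.69 with vehicle. On 1452114_s_at the readings were 3.75, 4.96 and 4.54 with the drug, against 4.05, 4.30 and 4.59 with vehicle. The array that stood out was KPR8 with the drug on the first set and KPR5 with the drug on the second, so the sets give no common pattern, and their Pearson's r over the 6 arrays was 0.313. The changes were 0.07 ± 0.18 (95% interval -0.32 to 0.45, adjusted p = 0.842) and 0.10 ± 0.18 (95% interval -0.29 to 0.50, adjusted p = 0.751).

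Igfbp2 and Igfbp6 each have 1 probe set, and neither reached log2 4 on any array. Igfbp2 on 1454159_a_at read 2.52 (KPR4), 2.57 (KPR5) and 2.43 (KPR8) with the drug, against 2.61, 2.61 and 2.53 with vehicle, all below the highest control at 2.84. Igfbp6, whose product prefers IGF2, read 2.85, 2.72 and 2.85 on 1417933_at with the drug, against 2.89, 2.74 and 2.78 with vehicle, to either side of that control. In the fit without a filter the changes were -0.08 ± 0.10 (adjusted p = 0.716) for Igfbp2 and -0.00 ± 0.10 (adjusted p = 0.999) for Igfbp6. At background such values set no bound on a change in the transcript.

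The levels of the binding proteins were also compared between the lines. In limma's F-test 6 of the 12 tested probe sets differed between lines, or 50%, near the 38.8% of all probe sets. The 2 arrays of a line differ in treatment and are its only repeat. Igfbp3 and Igfbp7 had opposite orders: Igfbp3 was highest in KPR8 and lowest in KPR4, and Igfbp7 was highest in KPR4 and lowest in KPR8. Pairs of lines were compared with p-values adjusted over all probe sets and the 3 pairs together, and by that rule 24.1% of all probe sets told KPR4 from KPR5, 26.2% told KPR4 from KPR8 and 19.8% told KPR5 from KPR8.

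For Igfbp3 (F-test, adjusted p = 0.000481) the mean of the 2 arrays was 10.57 in KPR4, 11.00 in KPR5 and 11.92 in KPR8. The difference KPR4 minus KPR8 was -1.35 ± 0.19 (SE, adjusted p = 0.000307), a level 2.55-fold lower in KPR4, and KPR5 minus KPR8 was -0.92 ± 0.19 (adjusted p = 0.00429). KPR4 minus KPR5 was -0.43 ± 0.19 and did not pass (adjusted p = 0.115). By treatment, KPR4 minus KPR8 was -0.87 with the drug and -1.83 with vehicle, and KPR4 minus KPR5 was -0.04 with the drug and -0.82 with vehicle, so these gaps were narrower in treated cells. With 1 array per line and treatment that narrowing could not be tested.

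For Igfbp7 on 1423584_at (F-test, adjusted p = 0.000771) the mean was 11.46 in KPR4, 11.16 in KPR5 and 10.57 in KPR8. KPR4 minus KPR8 was 0.89 ± 0.13, or 1.85-fold (adjusted p = 0.000495), and KPR5 minus KPR8 was 0.59 ± 0.13 (adjusted p = 0.00695), whereas KPR4 minus KPR5 was 0.30 ± 0.13 and did not pass (adjusted p = 0.120). The dim sets had the same order of lines, with KPR4 minus KPR8 at 0.79 ± 0.20 on 1423585_at (adjusted p = 0.0119) and at 0.50 ± 0.21 on 1437804_at (adjusted p = 0.0979). By treatment, KPR4 minus KPR8 on the bright set was 0.80 with the drug and 0.98 with vehicle.

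Igfbp4 differed between lines on 1437405_a_at (F-test, adjusted p = 0.0229), where KPR5 was lowest: KPR4 minus KPR5 was 0.39 ± 0.13 (adjusted p = 0.0457) and KPR5 minus KPR8 was -0.47 ± 0.13 (adjusted p = 0.0193). There KPR4 minus KPR8 was -0.08 and did not pass (adjusted p = 0.675). On the dim set 1421991_a_at (F-test, adjusted p = 0.0253) KPR5 was again lowest, with KPR4 minus KPR5 at 0.70 ± 0.20 (adjusted p = 0.0220), and KPR4 minus KPR8 was 0.60 ± 0.20 (adjusted p = 0.0456). For Igfbp5 1 of 2 sets passed the F-test, 1452114_s_at (adjusted p = 0.0332), with KPR4 lowest at a mean of 3.90, under the filter level. Markers of cell types also differed between lines, 5 of the 6 tested epithelial genes, 3 of the 3 fibroblast genes and 1 of the 3 leukocyte genes. In the same F-test 40.1% of all genes by their brightest probe set differed. The markers had no common order of lines. Col1a1 and Col1a2 were highest in KPR4 and lowest in KPR5, with Col1a1 at a mean of 7.59 in KPR4, 5.62 in KPR5 and 6.94 in KPR8. Pdgfra was lowest in KPR4 at 3.84 and highest in KPR5 at 4.98, with KPR8 at 4.04. The leukocyte gene Cd14 averaged 9.12 (KPR4), 7.19 (KPR5) and 6.48 (KPR8). The part of these in the differences between lines was not tested.

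**Figure D3:**
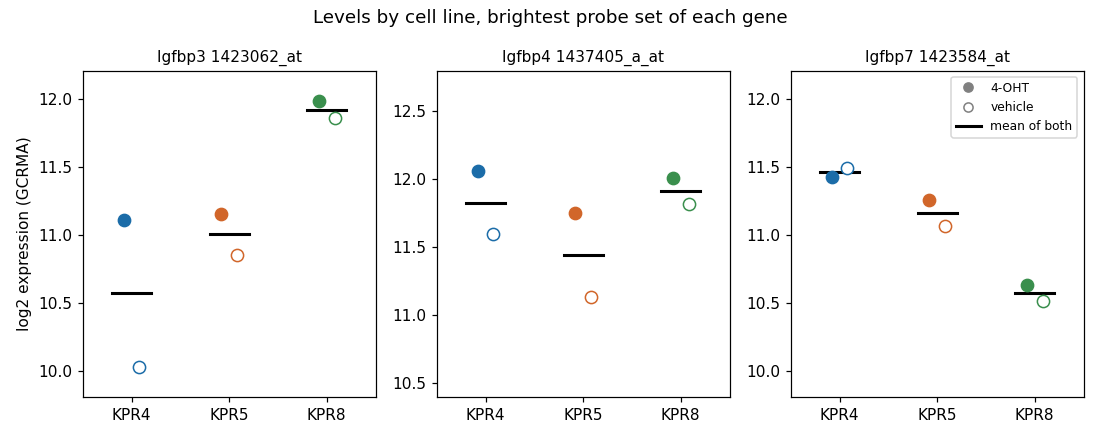
Log2 expression (vertical axis, GCRMA values) of the brightest Igfbp3, Igfbp4 and Igfbp7 probe sets by cell line, with 4-OHT as filled and vehicle as open circles and the mean of both as a bar. Igfbp3 is at a mean of 10.57 in KPR4 and 11.92 in KPR8, whereas Igfbp7 is at 11.46 in KPR4 and 10.57 in KPR8.

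Igfbp3 was the only member past the filter whose brightest probe set spanned 1 or more over the arrays, and the genes most like it were sought among 7643 others by Pearson's r over the 6 arrays. The nearest were Pxn, which encodes the focal adhesion protein paxillin (r = 0.987), Hnrnpdl, an RNA-binding protein gene (r = 0.985), and Fscn1, encoding the actin-bundling protein fascin (r = 0.985). Pxn read 10.85 (KPR4), 11.03 (KPR5) and 11.48 (KPR8) with the drug, against 10.21, 10.72 and 11.26 with vehicle. As for Igfbp3, the level was highest in KPR8, and the gap between treatments was widest in KPR4. Of the 7643 genes searched, 132 had an r above 0.9, so the 3 named are the nearest of many. With 6 arrays the likeness is a description only.

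The other genes of the IGF axis were taken from 5 lists of 46 genes in all, of which 41 had a probe set and 21 were tested. Of these 7 rose and 0 fell (8 higher and 2 lower at limma's unadjusted p under 0.05), against 9.48% higher and 8.03% lower among 7644 genes by their brightest probe set. Their median change was 0.17, and that of all genes 0.00. Between the lines 12 of the 21 differed, against 40.1% of all genes. Of the ligands Igf1 alone was tested, and the signalling receptors were under the filter. Igf2 did not exceed 2.34, and the serum partner gene Igfals did not exceed 2.10. The probe sets of the IGF1 receptor gene Igf1r lay between 3.02 and 3.67 and those of the insulin receptor gene Insr between 2.25 and 3.75, under the filter. Igf1 read 4.05 (KPR4), 4.20 (KPR5) and 4.43 (KPR8) with the drug, against 4.53, 4.45 and 4.90 with vehicle, on its brightest set, 1437401_at. All 3 treated arrays lay below all vehicle arrays, a separation in either direction that 15.0% of tested probe sets had. The change did not pass (-0.40 ± 0.15, adjusted p = 0.0803). On the other tested set, 1419519_at, KPR8 was higher with the drug, and the change did not pass (-0.16 ± 0.15, adjusted p = 0.531).

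Of 7 tested genes for receptors and adaptors, 3 rose and 0 fell. Igf2r, the receptor that clears IGF2 and sorts lysosomal enzymes, read 9.01 (KPR4), 8.95 (KPR5) and 8.79 (KPR8) with the drug, against 8.63, 8.55 and 8.25 with vehicle. All 3 treated arrays lay above all vehicle arrays, which 15.0% of tested probe sets did in either direction, and the change was 0.44 ± 0.14 (SE, adjusted p = 0.0487). That call stands at the threshold, and it ended when any 1 line was left out (adjusted p = 0.102 to 0.193). Gab1, a docking protein of growth factor receptors, rose by 0.74 ± 0.16 (adjusted p = 0.00888), and Grb14, an adaptor that inhibits the insulin receptor, by 0.66 ± 0.17 (adjusted p = 0.0220). The call of Grb14 ended without KPR4 (0.66, adjusted p = 0.0886) or without KPR5 (0.51, adjusted p = 0.123). Irs1, encoding a main substrate of the insulin and IGF1 receptors, differed by 1.03 in KPR4 but 0.13 in KPR5 and 0.27 in KPR8, and the mean of 0.48 ± 0.19 did not pass (adjusted p = 0.114), except without KPR5 (0.65, adjusted p = 0.0416).

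Among proteases that cut binding proteins and their inhibitors, 2 of 7 tested genes rose and 0 fell. Ctsd, the lysosomal protease cathepsin D, rose by 1.30 ± 0.15 (adjusted p = 0.000121), and Adam9, a membrane protease, by 0.32 ± 0.10 (adjusted p = 0.0454), a call lost with any 1 line left out (adjusted p = 0.0546 to 0.254). Pappa, which encodes the pappalysin that cuts Igfbp4 protein, read 2.98 to 3.78 and was under the filter, as was its inhibitor gene Stc2. The related inhibitor gene Stc1 was tested on 1 of its 2 probe sets, which read 4.963 to 6.025. Its change did not pass (0.165 ± 0.181, adjusted p = 0.584). Htra1, a serine protease with a domain like that of the binding proteins, was well expressed. Its brightest set, 1438251_x_at, read between 9.70 and 10.83 with the drug and between 9.39 and 10.64 with vehicle. The change did not pass there (0.18 ± 0.13, adjusted p = 0.380) or on 1416749_at, which was higher in each line (0.275 ± 0.134, adjusted p = 0.184).

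Of 4 tested genes that share the binding domain, 2 rose and 0 fell. Ccn1, a matrix protein gene, rose by 0.89 ± 0.14 (adjusted p = 0.00101) on its brightest set, 1416039_x_at, whose ending marks a less certain reading. Its other set, 1438133_a_at, rose by 1.21 ± 0.15 (adjusted p = 0.000162). Crim1, a membrane protein gene, rose by 0.78 ± 0.22 (adjusted p = 0.0302). The difference for Crim1 was 1.27 in KPR4 and 1.06 in KPR8 but 0.02 in KPR5. Its call ended when KPR4 was left out (0.54, adjusted p = 0.212), when KPR8 was (0.64, adjusted p = 0.148) and without a filter (adjusted p = 0.0549). The other tested Crim1 probe set, 1426951_at, did not pass (0.47 ± 0.17, adjusted p = 0.0806). Of the IGF2 mRNA-binding proteins, which bind RNA and are no relatives of the IGF-binding proteins, 0 of 2 tested genes passed: Igf2bp1 differed by -0.12 ± 0.17 (adjusted p = 0.690) and Igf2bp3 by -0.34 ± 0.15 (adjusted p = 0.149), with an unadjusted p under 0.05 for 1 of them.

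**Figure D4:**
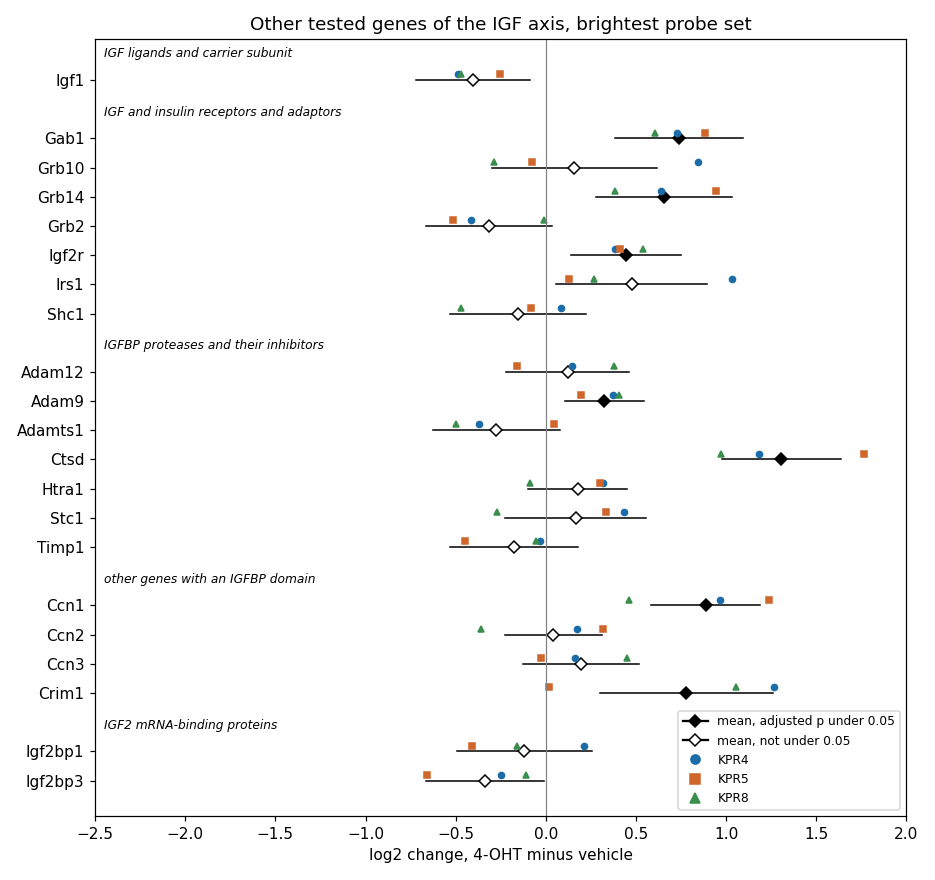
Log2 change, 4-OHT minus vehicle (horizontal axis), of the 21 other tested genes of the IGF axis by list, each by its brightest probe set. Diamonds are means over 3 lines with 95% intervals from limma, filled where the adjusted p is under 0.05, and coloured symbols are the single lines; 7 genes are filled, all to the right of 0, with Ctsd furthest at 1.30.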

How the data were processed

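Total RNA of 3 cell lines under 2 treatments was measured on 1 array each. Each deposited number is a log2 level of 1 probe set. The authors used GCRMA 2.20.0, and R 2.11.0 is named beside it in the submitters' processing notes. The method removes a background modelled from probe sequence and equalizes the arrays (array medians 4.56 to 4.63), and a shift common to most transcripts would not be seen. Detection calls and scanner files were not used here. Gene symbols came from the platform annotation, updated through the GRCm38.p6 gene table.

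Probe sets at log2 4 or above on at least 3 arrays were fitted together with limma 3.58.1 in R 4.3.3, with terms for line and treatment and a variance trend. The p-values of the treatment term are 2-sided, and adjusted ones use Benjamini-Hochberg over the 13169 probe sets. The F-tests between lines are adjusted over the same probe sets, and the pairs of lines over these and the 3 pairs together. In each alternative fit the adjustment is over the features tested there. The prior of 10.9 degrees of freedom, borrowed across probe sets, outweighs the 2 residual ones, and standard errors and 95% intervals use that moderated spread. Levels have SDs over 3 arrays. The number of arrays limits the precision. Pairing by line follows the labels, and deviations from the group means correlated within lines (0.862 for KPR4, 0.694 for KPR5, 0.718 for KPR8). The labels do not say how the cultures of a line were set up. With the line term, p-values rest on how unevenly the change with the drug varied over these 3 lines, moderated by that prior. They do not measure the spread between cultures of 1 line. The members, lists and tests were chosen with earlier results of these data known. Every member probe set is named. Of the other lists, the genes past the threshold, the main ligands and receptors, and a few others are named. These others, Pappa, Stc1, Stc2, Htra1, Irs1, Igfals and the IGF2 mRNA-binding proteins, were chosen after their values were seen. The nearest 3 genes to Igfbp3 were named by correlation.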

Additional observations from a re-analysis of the deposited data

How the results depend on the processing

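Of 12 alternative settings, those without a line term, with probe sets averaged by gene, without a variance trend and without KPR4 left 0 of the IGF-binding protein probe sets or genes called higher, against 3 in the reported fit; with no replicate block the pairing by line is lost. At most 3 were called under any setting, and 0 were called lower in any of the 12. With 1 line left out, 0 to 3 were called higher. For the other IGF axis genes the count of 7 higher became 0 without the line term and 4 without a filter, and 3 to 5 with 1 line left out, with 0 lower in each. The count of 6 probe sets that differed between lines became 3 genes with averaged probe sets and 3 to 7 with 1 line left out. Over the whole array 1055 higher and 1029 lower calls became 34 and 2 without the line term, 614 and 548 without KPR4, 614 and 629 with averaged probe sets and 805 and 683 with the brightest set of each gene, where fewer features were tested. Directions turned for probe sets that had not passed: with a line left out, 1423756_s_at of Igfbp4 ran from -0.27 to 0.12, 1422313_a_at of Igfbp5 from -0.17 to 0.26, 1452114_s_at of Igfbp5 from -0.17 to 0.31 and 1437804_at of Igfbp7 from -0.10 to 0.22. So did uncalled genes of the axis: Adam12 (-0.009 to 0.26), Ccn2 (-0.10 to 0.24, with -0.023 without KPR4), Grb10 (-0.18 to 0.38), Igf2bp1 (-0.29 to 0.026) and Shc1 (-0.28 to 0.004). With probe sets averaged by gene Adam12 was at -0.012. The cause of these shifts was not tested. Settings that leave out a line have fewer arrays, and the one without the line term loses the pairing.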

Other observations

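Igfbp1, the remaining gene of the classical family, is not among the 6 genes chosen. It read 4.54 (KPR4), 4.65 (KPR5) and 4.28 (KPR8) with the drug, against 4.31, 4.67 and 4.59 with vehicle, and did not pass (-0.03 ± 0.16 SE, adjusted p = 0.919). Adam12, which encodes a protease that cuts binding proteins, had a probe set, 1421171_at, on which the lines moved to opposite sides, at -0.21 (KPR4), -1.19 (KPR5) and 0.97 (KPR8). Its brighter set differed by 0.14, -0.16 and 0.38 in the same lines, and the difference between lines was not tested, since each has 1 array per treatment.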
